A study of Mus musculus with 16 samples.

Results

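Mesothelial-like cells (MLCs) and smooth muscle cells (SMCs) were compared, with 4 libraries of each, 8 of the 16 libraries in the series. Each gate was a fraction of the Pdgfrb+ cells that flow cytometry isolated from C57BL/6 mice on postnatal day 7. The tissue was epididymal white fat, and RNA of the isolated cells was sequenced in bulk. The other 8 libraries hold adipocyte precursors (APCs) and fibro-inflammatory progenitors (FIPs) of the same strain, depot and age, with 4 of each. No genotype or treatment is named for any group. The labels give neither the surface antigens that part the gates nor whether the replicates came from separate animals or sorts, so p-values rest on library-to-library spread that could be technical. The libraries were assigned to gates by their labels, but the comparison and the gene lists were chosen with earlier results of these data known. The question was which genes separate 2 gates that both hold contractile and mesothelial transcripts. Values are the authors' normalized counts, and fold changes are MLCs over SMCs on log2(normalized count + 1).

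Mesothelium is the simple epithelium that covers the fat pad and lines the body cavity. It arises from mesoderm and carries keratins, apical glycoproteins such as mesothelin and tight junctions together with mesenchymal proteins such as vimentin. Smooth muscle of vessel walls contracts through a smooth muscle myosin and alpha actin, whose genes are driven by serum response factor (SRF) and its cofactor myocardin. Pericytes and adventitial fibroblasts lie beside that muscle and share PDGF receptors with it. In bulk RNA, fewer cells of a type and less RNA per cell cannot be told apart.

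The 4 MLC libraries held 20.8 to 24.8 M reads and the 4 SMC libraries 9.20 to 19.6 M, with SMCs replicate 3 the shallowest. The first principal component of the 8 libraries carried 86.98% of the variance and separated the gates. The second carried 4.53% and set SMCs replicate 3 apart from the other SMC libraries. Pearson correlations across genes, which are not independent replicates, were 0.990 to 0.993 between MLC libraries, 0.973 to 0.986 between SMC libraries and 0.833 to 0.848 between gates.

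Of 14600 genes that reached 10 normalized counts in 4 or more of the 8 libraries, 4032 were called, which is 27.6% of those tested (limma, Benjamini-Hochberg adjusted p under 0.05 and at least a 2-fold change). MLCs were higher in 2135 genes (14.6%) and lower in 1897 (13.0%). With no fold threshold, 9692 genes had an adjusted p under 0.05, so a gene not called can still differ by less than 2-fold. Over all genes tested the log2 fold change had a median of 0.05, and the libraries of the gates did not overlap in 62.2%. Most abundant genes were held in common: 10121 genes averaged at least 100 in both gates, and 8422 of these, or 83.2%, were not called. The 6 most abundant of them by rule were Col3a1, Fosb, Fos, Fn1, coding for fibronectin, Sparc and Egr1. The differences were lopsided in size. A change of at least 16-fold was called for 100 genes higher in MLCs and for 273 genes lower in MLCs. Of genes with a mean of at least 100 in the gate that held them, 8 were under 10 in every SMC library, and 54 were under 10 in every MLC library. The first of these counts was 19 without SMCs replicate 3 and 16 without SMCs replicate 2.

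**Figure D1:**
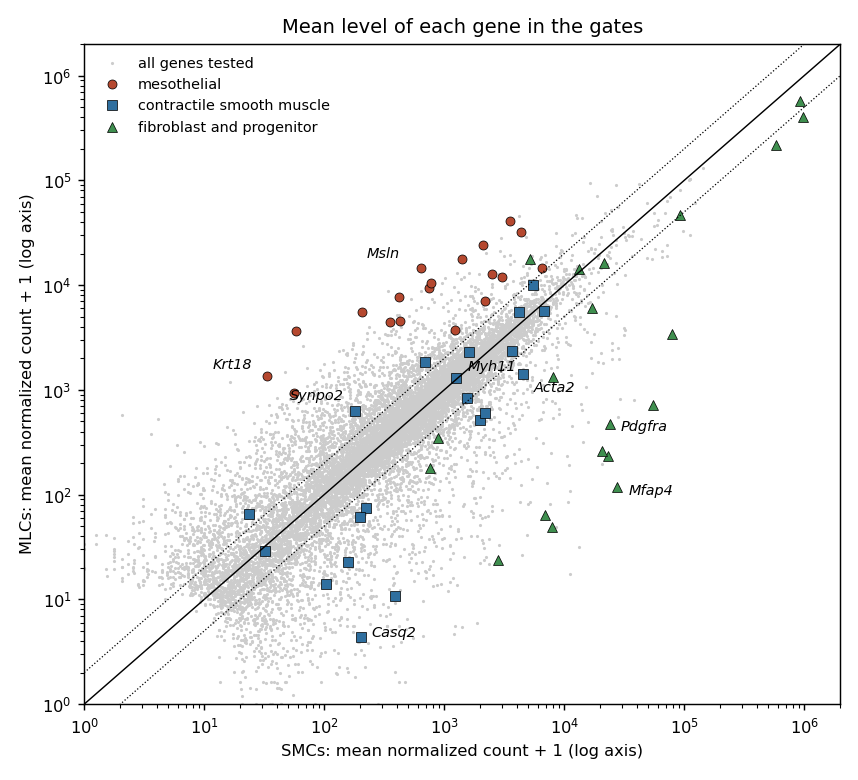
Each point is 1 gene, placed by its mean normalized count plus 1 in SMCs (horizontal, log axis) and in MLCs (vertical, log axis), over 4 libraries each. The solid line marks equal levels and the dotted lines a 2-fold difference. Mesothelial genes lie above the upper dotted line, contractile genes lie on both sides of equality, and 16 of 20 fibroblast and progenitor genes were called, 15 of them lower in MLCs.

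Mesothelial genes parted the gates in a single direction. Of 20 listed genes 19 were tested, and all 19 were higher in MLCs, with log2 fold changes from 1.16 to 6.08 and a median of 3.69. Msln, coding for the surface glycoprotein mesothelin (GRCm38 chromosome 17, 25748613 to 25754378, a protein-coding gene), was at 14463, 14030.3, 13878 and 15213 normalized counts in MLCs, against 640.2, 641, 687 and 596 in SMCs. Every MLC library was higher than every SMC library, and the log2 fold change was 4.49 ± 0.05 SE (limma adjusted p = 6.5e-14). Upk3b, coding for a uroplakin of the apical membrane, was at 39960.4, 41414, 40503 and 40328 in MLCs, against 4022, 3278, 4311 and 2503 in SMCs. The gates did not overlap, and the highest SMC library was replicate 3. The keratins of simple epithelia followed, and Krt19 was at 17184, 18199, 17133 and 18528 in MLCs, against 1434, 1344, 1734 and 1058 in SMCs. Its SMC libraries were again highest in replicate 3 and lowest in replicate 4. The log2 fold changes of Upk3b and Krt19 were 3.55 and 3.69.

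Among the other mesothelial genes, the widest gaps were in Slpi (6.08), coding for a secreted protease inhibitor, Krt18 (5.41) and Krt8 (4.76), which pair in 1 filament, Krt7 (4.22) and the mucin gene Muc16 (4.16). Lrrn4 (3.55), Gpm6a (3.80), coding for a membrane glycoprotein, Upk1b (3.69), Pkhd1l1 (2.96), the tight junction gene Cldn15 (3.42) and Bnc1 (3.71), coding for the zinc finger protein basonuclin 1, were next. The narrowest were Ezr (2.36), coding for ezrin, Wt1 (1.98), coding for the Wilms tumour transcription factor, Rspo1 (1.69), Nkain4 (1.59) and Efemp1 (1.16), coding for a fibulin. Wt1 averaged 11868 ± 235 in MLCs and 3023 ± 468 in SMCs (SD, n = 4 each), and it averaged 3996 ± 179 in APCs and 2879.8 ± 208 in FIPs. Calb2, coding for calretinin and often used to mark mesothelium in pathology, was not tested: it was at 0 in 2 MLC libraries and under 1 in the other two.

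SMCs nevertheless held mesothelial transcripts, and the list summed to more in every SMC library than in every progenitor library. The sums were 25690 to 35962 in SMCs, 13189 to 15265 in APCs and 19147 to 21759.6 in FIPs. Msln was at 641 ± 37.5 in SMCs, against 10.5 ± 7.48 in APCs and 31.3 ± 4.39 in FIPs, with log2 differences of 6.01 and 4.32 (limma on all 16 libraries, adjusted p = 1.3e-12 and 1e-10, and 17.2% and 17.9% of genes called in these comparisons). Bnc1 differed likewise by 6.19 and 4.80 (adjusted p = 3.5e-11 and 1.1e-09). Not every listed gene did so, as Wt1 had a lower mean in SMCs than in APCs. As a share of the MLC mean, the SMC mean of the 19 tested genes had a median of 8.01% and ran from 1.57% for Slpi to 44.8% for Efemp1. The share was 8.70% for Upk3b, 8.77% for Lrrn4 and 8.01% for Bnc1, but 4.45% for Msln and 2.42% for Krt18, so it was not constant across genes. Within SMCs, 15 of 19 were highest in replicate 3 and 14 of 19 lowest in replicate 4. This was not particular to mesothelial genes: 16 of 23 adipocyte genes and 14 of 20 chemokine and cytokine genes were highest in replicate 3. Only 2 of 20 fibroblast and progenitor genes and 4 of 23 basement membrane genes were highest there. The share over all genes tested was not computed. In MLC libraries the sum was 221977 to 231482. The part of this variation in the differences between gates was not tested.

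**Figure D2:**
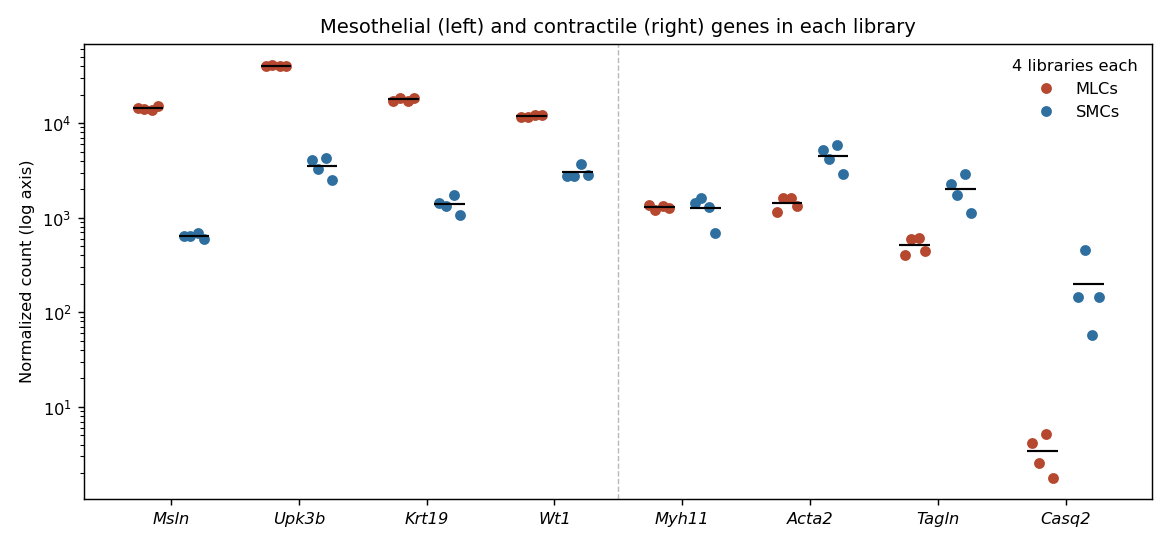
Normalized counts (log axis) of 4 mesothelial and 4 contractile genes, with each point 1 library and each bar the mean of 4 libraries. Msln, Upk3b, Krt19 and Wt1 did not overlap between gates and were higher in MLCs, Myh11 overlapped, and Acta2, Tagln and Casq2 were lower in MLCs.

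Contractile genes did not part the gates as a block. Of 22 listed genes 20 were tested, and 3 were higher in MLCs, 9 were lower and 8 were not called, with a median log2 fold change of -0.77. Myh11, coding for the smooth muscle myosin heavy chain (GRCm38 chromosome 16, 14194527 to 14292188), was at 1377, 1193, 1325 and 1256 normalized counts in MLCs, against 1446, 1633, 1289.5 and 681 in SMCs. The gates overlapped, and SMCs replicate 4 was the lowest of the 8 libraries. The log2 difference was 0.10 with a 95% interval of -0.36 to 0.56, so a 2-fold difference in either direction lay outside the interval. Myocd, coding for myocardin, averaged 28.1 ± 6.82 in MLCs and 31.1 ± 18.9 in SMCs and was not called (0.03, 95% interval -0.87 to 0.94). APCs averaged 0.715 ± 0.953 and FIPs 0.495 ± 0.989, below MLCs by 4.21 and 4.44 and below SMCs by 4.18 and 4.40 on the log2 scale (limma on all 16 libraries, largest adjusted p = 1.7e-06, with 29.6%, 31.1%, 17.2% and 17.9% of genes called in these comparisons).

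Alpha actin and its partners leaned to SMCs. Acta2, coding for smooth muscle alpha actin (GRCm38 chromosome 19, 34240336 to 34255585), was at 1143, 1627, 1604 and 1338 in MLCs, against 5235, 4169.9, 5858 and 2885 in SMCs. The gates did not overlap, and in SMCs replicate 3 was the highest and replicate 4 the lowest. It fell by 1.63 on the log2 scale ± 0.19 SE (limma adjusted p = 1e-05). Tagln, coding for the actin binding protein transgelin, was at 402, 599.6, 612 and 444 in MLCs, against 2250.1, 1747, 2869 and 1122 in SMCs, again with replicate 3 high and replicate 4 low. Tagln was called at -1.90, as were Myl9 (-1.85), coding for a regulatory light chain, Cnn1 (-1.47), coding for calponin 1, Mustn1 (-1.70) and the gamma actin gene Actg2 (-2.84). Acta2 and Actg2 are close in coding sequence, so reads may be shared between them.

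The deepest contractile differences were in Casq2, Itga8 and Lmod1. Casq2, coding for a calcium store protein of muscle, was at 4.19, 2.54, 5.16 and 1.76 in MLCs, against 145, 457, 57.6 and 145 in SMCs. It was near absent from every MLC library, and SMCs replicate 2 stood highest. Itga8, coding for an integrin chain of smooth muscle and mesenchyme, was at 5.03, 13.5, 11.1 and 9.68 in MLCs, against 441, 298, 478 and 331 in SMCs. Their log2 fold changes were -5.20 ± 0.52 SE and -5.21 ± 0.27 SE, and that of Lmod1, coding for an actin nucleator, was -2.98. The 3 contractile genes higher in MLCs were those of Z-line and actin scaffold proteins. Synpo2 rose by 1.91, Ldb3 by 1.56 and Sorbs2 by 1.41, and Sorbs2 was at 1806, 1836, 1800.4 and 1857 in MLCs, against 719, 679.9, 681 and 659 in SMCs. The tropomyosin genes Tpm1 (0.86) and Tpm2 (0.54), Smtn (0.39), Cald1 (-0.26), the myosin kinase gene Mylk (-0.65) and the desmin gene Des (-0.88) were not called. Each of these differed by less than 2-fold, with a limma adjusted p of at most 0.0068. Summed over the list, MLC libraries held 32622 to 33878 normalized counts and SMC libraries 30233 to 38144, so the sums overlapped. The progenitors also held much of this signal, with sums of 22318 to 28430 in APCs and 20148 to 21393 in FIPs. Every progenitor library was below every library of both gates.

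**Figure D3:**
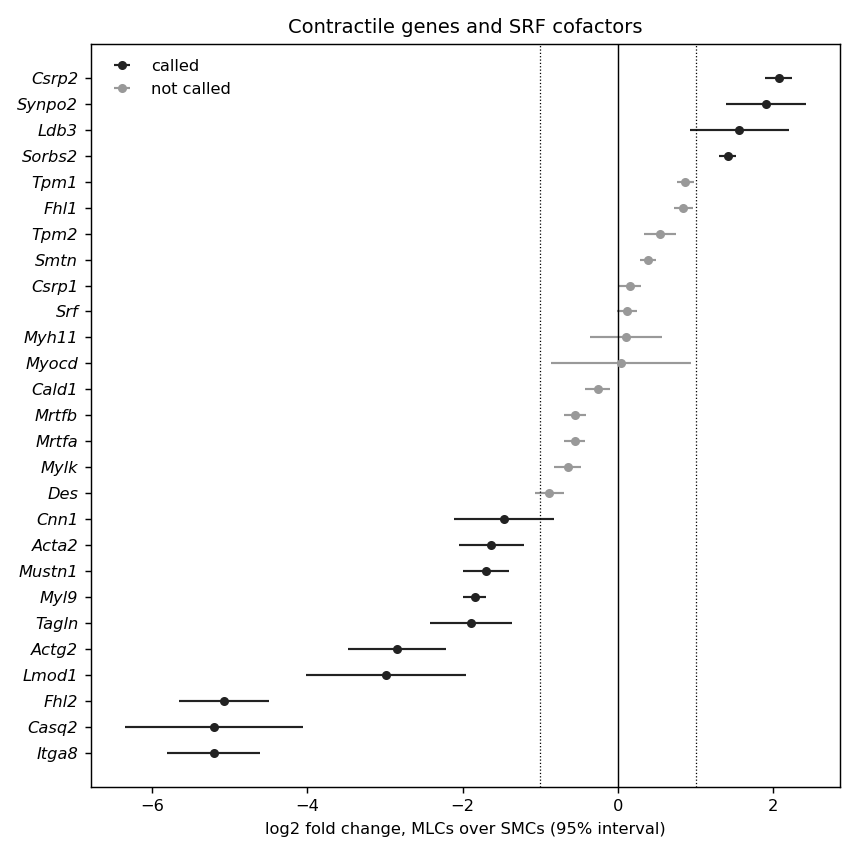
Log2 fold changes of MLCs over SMCs with 95% intervals for the tested contractile genes and for the genes of SRF and its cofactors. Black marks called genes, grey marks genes not called, and dotted lines mark a 2-fold change. Casq2, Itga8 and Fhl2 lie near -5, and Myh11, Myocd and Srf lie near 0.

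Of 8 listed SRF and cofactor genes 2 were called, a share near the 27.6% of all genes tested. The 6 not called included Srf (0.12), Mrtfa (-0.56) and Mrtfb (-0.55), which code for the actin-sensing cofactors, Csrp1 (0.15) and Fhl1 (0.84). The 2 called genes code for LIM domain proteins and moved in opposite directions. Csrp2 averaged 8436 ± 671 in MLCs and 2016 ± 218 in SMCs and rose by 2.07. Fhl2, coding for an SRF-binding cofactor, was at 8.38, 16.1, 9.59 and 11.4 in MLCs, against 371, 666, 297 and 369.9 in SMCs, a log2 fold change of -5.08.

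SRF binds a sequence called the CArG box, and promoter windows of the contractile and SRF cofactor genes were searched for it because these genes split between the gates. The windows run from 250 bases before to 50 after each RefSeq gene start (RefSeq, GRCm38.p6), and the box was matched in its strict form, which reads the same on both strands. Of 29 genes on these lists 24 had a window, and 5 of them held a box, in 7 of 34 windows. Tagln and Myh11 were among the genes without a window and were not searched. Windows of 1 gene can overlap, and both Ldb3 windows held the same box. Over all 32851 windows of the same length, 1.63% held one. The stretches below are written 5′ to 3′ on the gene's strand with the box in capitals, for Fhl2 (2 starts) and Myl9, which fell, Ldb3, which rose, and Srf and Fhl1, which were not called.
Fhl2, chr1:43163953-43164022, minus strand: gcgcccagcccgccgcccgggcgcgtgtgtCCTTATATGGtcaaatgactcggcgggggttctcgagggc
Fhl2, chr1:43196818-43196887, minus strand: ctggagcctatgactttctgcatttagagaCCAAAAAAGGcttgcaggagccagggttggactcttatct
Myl9, chr2:156775273-156775342, plus strand: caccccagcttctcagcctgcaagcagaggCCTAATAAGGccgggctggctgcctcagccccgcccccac
Ldb3, chr14:34588677-34588746, minus strand: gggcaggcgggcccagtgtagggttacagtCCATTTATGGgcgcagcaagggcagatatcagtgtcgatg
Srf, chr17:46556185-46556274, minus strand: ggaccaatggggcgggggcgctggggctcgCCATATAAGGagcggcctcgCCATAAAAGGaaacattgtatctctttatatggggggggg
Fhl1, chrX:56779551-56779620, plus strand: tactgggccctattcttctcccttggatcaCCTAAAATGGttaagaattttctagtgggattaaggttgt
Such a match is a description of these letters and not a site, and boxes stood in genes of both directions.

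Pericyte and vessel tone genes were mostly lower in MLCs than in SMCs. The pericyte list summed to 7737 to 8165 in MLC libraries and 16688 to 18025 in SMC libraries. It summed to 16631 to 18687 in APCs and 14417 to 16292 in FIPs, so SMCs did not stand above APCs. Of 16 pericyte genes 14 were tested, with 8 lower in MLCs, 1 higher and 5 not called (median -1.62). The calls included Pdgfrb, the gene of the receptor the cells were sorted on, which was at 452, 483, 472 and 419 in MLCs, against 4165, 3435, 4121 and 3429 in SMCs (-3.05). Both gates were sorted on the protein of this gene. Notch3, a Notch receptor of mural cells, averaged 133 ± 8.57 in MLCs and 1731 ± 302 in SMCs (-3.68). Vtn (-3.21), Ndufa4l2 (-2.41), Gucy1b1 (-1.77), coding for a guanylate cyclase subunit, Abcc9 (-1.72), coding for a potassium channel regulator, and Rgs5 (-1.52) also fell. Rgs5, used to mark pericytes, averaged only 23.0 in MLCs and 72.7 in SMCs, and without SMCs replicate 1 it was not called (-1.26). The remaining call was Ednra. Gucy1a1, the partner subunit, was not called (0.94, at 2814 in MLCs and 1472 in SMCs, but called at 1.05 with equal library totals), nor were Kcnj8 (0.12), Cspg4 (-0.48) and Anpep (-0.77). Trpc6, a cation channel gene, rose by 1.53.

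The receptors that tune contraction were also mostly lower in MLCs than in SMCs. The list summed to 12330 to 12972 in MLC libraries and 16939 to 19113 in SMC libraries. The sums were 23787 to 25416 in APCs and 20513 to 21780 in FIPs, so every SMC library was below every progenitor library. Of 29 vasoactive receptor genes 24 were tested, and 15 were lower in MLCs, 3 higher and 6 not called (median -1.90). Ednra, coding for the endothelin A receptor (GRCm38 chromosome 8, 77663029 to 77724452), was at 16.8, 28.8, 19.9 and 20.2 in MLCs, against 1728, 2910.5, 1309 and 1956 in SMCs. Every MLC library was below every SMC library, for a log2 fold change of -6.43 ± 0.22 SE (limma adjusted p = 2.3e-10). Avpr1a (-4.85), coding for a vasopressin receptor, Agtr2 (-4.32), coding for the type 2 angiotensin receptor, Npr3 (-4.03), coding for the natriuretic peptide clearance receptor, and Npr2 (-1.39), coding for the C-type natriuretic peptide receptor, were also lower. Agtr1a, coding for the type 1 angiotensin receptor, was not called (0.36). Ptger3, coding for a prostaglandin E2 receptor, rose by 2.49 and averaged 3197 ± 120.2 in MLCs and 570.3 ± 81.1 in SMCs.

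Fibroblast and progenitor genes were mostly lower in MLCs. Of 20 listed genes, all tested, 15 were lower in MLCs, 1 higher and 4 not called (median -2.44). Pdgfra, coding for the PDGF receptor alpha and a common marker of fibroblasts (GRCm38 chromosome 5, 75151322 to 75198206), was at 462, 494, 515 and 412 in MLCs, against 25058, 25503, 21130.3 and 23662 in SMCs. No library overlapped, and the log2 fold change was -5.66 ± 0.08 SE (limma adjusted p = 1.7e-13). APCs averaged 20555 ± 248 and FIPs 22966 ± 975, and SMCs differed from them by 0.21 and 0.05 on the log2 scale, under a 2-fold change. The gate labelled SMCs thus carried this fibroblast marker beside Acta2 and Myh11. Smooth muscle of vessels is known for little of it, and the label is used here as the name of the gate.

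Most of these genes code for secreted matrix proteins. Mfap4, coding for a microfibril-associated glycoprotein (GRCm38 chromosome 11, 61485431 to 61488708), was at 96.3, 161, 101 and 107 in MLCs, against 25377, 28979.9, 25289 and 31214 in SMCs. The SMC libraries were close to each other and the gates did not overlap (-7.91). Penk (-7.32), coding for proenkephalin, Lrrc17 (-6.91), the leucine-rich proteoglycan genes Aspn (-6.78) and Lum (-6.66), Dpt (-6.33), Postn (-6.27), coding for periostin, and Gsn (-4.52), coding for gelsolin, fell by more than 16-fold. Mfap5 (-2.61), Ly6a (-2.26), coding for a surface antigen of progenitors, Ogn (-1.51), Thy1 (-1.28), Col1a2 (-1.41) and Col1a1 (-1.27) fell less. Under quantile normalization neither Col1a2 nor Col1a1 (-0.28) was called. That scaling gives every library the same set of values, so genes of the highest ranks can differ there only by rank. Dcn, coding for decorin, was at -0.98, just short of a call, and was called without SMCs replicate 1 (-1.02) or replicate 3 (-1.01), and on recovered reads by edgeR (-1.01) and DESeq2 (-1.02). Col3a1 (-0.70), Cd34 (-0.42) and Fbln1 (0.08) were not called. Fmod, coding for fibromodulin, went the other way, at 18978, 17349, 17366 and 16899.6 in MLCs, against 5578, 5264, 4817 and 5099 in SMCs (1.77). Within SMCs, 14 of these 20 genes were highest in replicate 4, the library lowest in most mesothelial genes. No share over all genes tested was computed to set beside this count.

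Genes singled out by size of change alone showed the same poles. The 12 largest rises were Sim2, Krt14, Agr2, Il18r1, Slpi, Fxyd3, Pak6, Vtcn1, Krt18, Chst4, Rasgrp3 and Sorcs3, with log2 fold changes down to 5.27. Krt14, a keratin better known from basal layers (GRCm38 chromosome 11, 100203162 to 100207510), was at 532, 424, 445 and 682 in MLCs, against 4.21, 2.13, 0 and 6.13 in SMCs (7.29 ± 0.50 SE). Sim2, coding for a basic helix-loop-helix factor, was at 628, 492, 580.5 and 588 in MLCs, and the SMC libraries together held 2 reads, all in replicate 3. The ratio of the normalized totals was 954 (95% counting interval 264 to 7881). Agr2, coding for a disulfide isomerase of secretory epithelia, averaged 374 ± 55.6 in MLCs and 2.63 ± 2.04 in SMCs (6.94). Il18r1, coding for an interleukin 18 receptor chain, was at 1287, 1105, 1159 and 1207 in MLCs, against 8.42, 10.7, 23.5 and 19.4 in SMCs (6.28), and Il18, the gene of its ligand, rose by 3.48. Chst4 (5.33), coding for a sulfotransferase, Fxyd3 (5.75), coding for an ion pump regulator, and Vtcn1 (5.57), coding for an immune checkpoint ligand, followed.

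Among the 12 largest falls were Cilp, Hmcn2, Epyc, Art4, Dner, Col9a1, Mfap4, Hhip, Sh2d4b, Egflam and Ntrk3. Cilp, coding for a matrix protein first known from cartilage (GRCm38 chromosome 9, 65265180 to 65280614), was at 6.70, 26.2, 19.9 and 12.3 in MLCs, against 10168, 11645, 9829.6 and 12968 in SMCs (-9.48 ± 0.30 SE). The order among these falls depends on the 1 added to values near 0 in MLCs. Hmcn2, coding for hemicentin 2, a large basement membrane-associated protein, was at 20.1, 33.0, 33.2 and 35.2 in MLCs, against 13376, 10636, 16198 and 12720.3 in SMCs (-8.74). Epyc, coding for the proteoglycan epiphycan, averaged 4.90 ± 2.80 in MLCs and 1879 ± 326 in SMCs (-8.43). Egflam, coding for a matrix protein of synapses, fell by 7.49 on the log2 scale. Col9a1, coding for a cartilage collagen chain, was at 0 in every MLC library and at 278, 302, 171 and 365 in SMCs, at least 479-fold lower in MLCs when 3 reads over the 4 MLC libraries are taken as the floor. Art4 and Dner rested on 3 reads each over the MLC libraries, with SMC to MLC ratios of 755 (95% counting interval 258 to 3665) and 698 (238 to 3388). Ntrk3 (-7.46), coding for the neurotrophin 3 receptor, was held by all 4 SMC libraries. Counting intervals and floors cover counting error only.

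The hedgehog pathway targets Hhip, Gli1 and Ptch1 were lower in MLCs than in SMCs, while the pathway list as a whole moved in both directions. Hedgehog ligands release the receptor Smo from inhibition by Ptch1, and Gli transcription factors then raise Ptch1, Gli1 and Hhip, whose products feed back on the pathway. Of 13 listed genes 11 were tested, with 5 lower in MLCs, 1 higher and 5 not called (median -0.41), and the list summed to 78775 to 81471 in MLC libraries and 60233 to 63468 in SMC libraries. Gli1 was at 245, 219.9, 266 and 195 in MLCs, against 3247, 4001, 2615 and 3574 in SMCs (-3.85). Ptch1 (GRCm38 chromosome 13, 63508328 to 63573460) was at 282, 350.1, 375 and 326 in MLCs, against 2281, 3179, 2393 and 2445 in SMCs (-2.94). Neither gene's libraries overlapped between gates. Hhip, coding for a protein that binds hedgehog ligands (GRCm38 chromosome 8, 79965850 to 80058060), was at 3.35, 2.54, 7.38 and 4.40 in MLCs, against 2869, 1239, 747 and 786 in SMCs. The SMC libraries all stood far above the MLC libraries (-7.87 ± 0.40 SE, limma adjusted p = 5.6e-09). Gli2 (-2.43) was also lower in MLCs.

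In the model of all 16 libraries, SMCs were higher than APCs and FIPs in Hhip (6.20 and 7.20, limma adjusted p = 3.5e-11 and 2.9e-12), Gli1 (3.0 and 2.86, adjusted p = 1e-11 and 1.4e-11) and Ptch1 (2.77 and 3.03, adjusted p = 9.3e-13 and 1.7e-13). Smo (0.70), the co-receptor genes Boc (-0.41) and Gas1 (0.42) and Gli3 (0.06) were not called between gates. Cdon, another co-receptor gene, rose to 31667 ± 709 in MLCs, against 12194 ± 1127 in SMCs (1.38). The ligand genes Shh and Ihh were under the filter, and Dhh was not called at 7.55 in MLCs and 11.7 in SMCs.

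**Figure D4:**
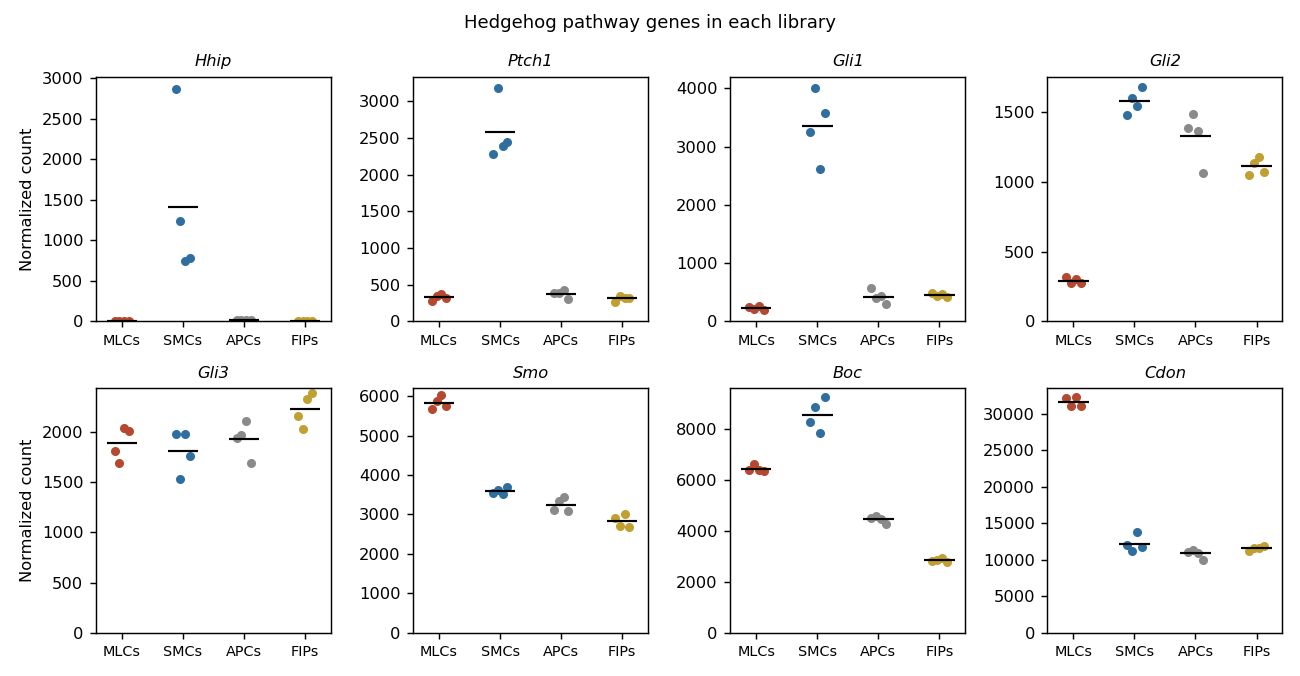
Normalized counts of 8 hedgehog pathway genes in every library of the 4 populations, with each point 1 library and each bar the mean of 4. Hhip, Ptch1 and Gli1 are high in SMCs, Gli2 is lowest in MLCs, and Gli3 overlaps between MLCs and SMCs.

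Transcription factors divided into an MLC set and a larger SMC set. Of 34 listed lineage factors 32 were tested, with 10 higher in MLCs, 17 lower and 5 not called (median -1.12). Beside Bnc1 and Wt1, the MLC set held Isl1 (3.5), Sox6 (3.40), Hand2 (2.65), Tbx18 (2.49), which marks epicardial mesothelium, Gata4 (2.13), Osr1 (2.0) and Gata6 (1.64). Isl1 was at 1013, 882, 895 and 867 in MLCs, against 49.5, 95, 135 and 64.4 in SMCs, with no overlap. The SMC set was led by Ebf1 (-5.57), an early B-cell factor of adipose and mural lineages, Tcf21 (-5.36), a factor of fibroblast progenitors, Nr2f1 (-5.29) and Ebf3 (-4.42). Tcf21 was at 30.2, 49.0, 45.7 and 33.5 in MLCs, against 1566, 1963, 1324 and 1769 in SMCs. Heyl (-3.68), a Notch target, Foxc2 (-3.68), Sox9 (-3.58), Tbx3 (-3.42), Ebf2 (-3.32), En1 (-3.07), Meox2 (-2.65), Meox1 (-2.56), Tbx15 (-2.32), Lhx9 (-1.94), Foxc1 (-1.51) and Nr2f2 (-1.17) were also lower in MLCs. Foxs1, a factor of pericytes, was not called (-0.69), nor was Tbx2 (0.42).

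Epithelial structure genes were mostly higher in MLCs, but these lists partly repeat the mesothelial list. Krt7, Krt8, Krt18, Krt19 and the junction list members Cldn15 and Ezr are on both. Of 15 keratin and desmosome genes 14 were tested, with 12 higher in MLCs, 1 lower and 1 not called (median 3.64). Dsp, coding for desmoplakin, averaged 901 ± 77.0 in MLCs and 50.4 ± 11.3 in SMCs (4.16), and the plaque genes Ppl (3.39) and Evpl (3.37) rose with it. Dsc2 fell (-1.43), and Jup, coding for plakoglobin, was not called (0.88). Of 27 junction and polarity genes 23 were tested, with 19 higher in MLCs, none lower and 4 not called (median 2.56). Cdh3, coding for P-cadherin, was at 1598, 1507, 1479 and 1545 in MLCs, against 69.5, 107, 130.2 and 57.2 in SMCs (4.13). Crb2 (3.31) and Patj (2.57), of an apical polarity complex, and the tight junction plaque genes Cgn (3.22), coding for cingulin, and Tjp1 (1.22), coding for ZO-1, rose as well. Cdh1, coding for E-cadherin, rose by 1.54 but averaged only 38.1 in MLCs and 13.5 in SMCs. Cldn1 (-0.67) and Pard3 (-0.12) were not called.

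Mesenchymal factors leaned to SMCs without being absent from MLCs. Of 11 genes tested, 7 were lower in MLCs, 2 higher and 2 not called (median -1.53). Prrx1 (-2.96), Twist2 (-2.86), Zeb2 (-2.27), Snai1 (-1.88) and Zeb1 (-1.12), transcription factors of mesenchyme, fell. Vim, coding for vimentin, averaged 33852 ± 1487 in MLCs and 24343 ± 1582 in SMCs and was not called (0.48). The mesenchymal cadherin genes Cdh11 (1.49) and Cdh2 (1.31) were higher in MLCs.

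Basement membrane and integrin genes divided by subunit between gates. Of 23 basement membrane genes, all tested, 8 were higher in MLCs, 8 lower and 7 not called. Laminin chains of epithelia rose: Lama5 was at 3743, 4171, 3758 and 4227 in MLCs, against 505, 348, 572 and 330.0 in SMCs (3.21), with Lama3 at 3.39. The main chain of mesenchyme and muscle fell, with Lama2 at 2959, 2855, 2891 and 2469 in MLCs, against 27130.2, 23911, 23069 and 24870.5 in SMCs (-3.15). The common chains Lamb1 (-0.50) and Lamc1 (-0.72) were not called. Of the type IV collagen genes, Col4a1 (-3.50) and Col4a2 (-3.38) fell. Agrn (1.61), coding for agrin, and Nid2 (1.89) rose, while Nid1 (-1.60), coding for the other nidogen, fell. Among 19 tested integrin genes 5 rose, 7 fell and 7 were not called. Itga3 (3.74), Itgb4 (2.86) and Itga6 (2.33), whose products bind laminin in epithelia, rose. Itga11 (-5.83), coding for a collagen receptor chain, Itga8, Itga9 (-3.34) and Itgb5 (-2.36) fell, and Itgb1 (-0.17), the shared beta chain gene, was not called.

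Signalling genes went both ways between the gates, where 14.6% of all genes tested were higher in MLCs and 13.0% lower. Of 20 tested Wnt genes 6 were higher in MLCs, 9 lower and 5 not called. Wnt2b averaged 7939 ± 294 in MLCs and 1690.2 ± 255 in SMCs (2.24), and Sfrp2 (3.24), coding for a secreted Wnt-binding protein, and Rspo1, an agonist gene of the mesothelial list, rose. Wnt5a averaged 967 ± 61.9 in MLCs and 8823 ± 1468 in SMCs (-3.17), and Sfrp1 (-6.15), another Wnt-binding protein gene, and the agonist gene Rspo3 (-4.67) fell. Of 35 tested BMP and TGF-beta genes 7 rose, 14 fell and 14 were not called. The ligand gene Bmp7 averaged 532 ± 39.8 in MLCs and 91.0 ± 7.79 in SMCs (2.54). The ligand genes Gdf10 (-5.27) and Tgfb2 (-2.21), the co-receptor gene Eng (-4.41), coding for endoglin, and the latent TGF-beta binding protein genes Ltbp1 (-4.68) and Ltbp2 (-4.24) were lower. The receptor genes Tgfbr1 (-0.59), Tgfbr2 (0.06) and Bmpr1a (0.19) were not called.

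Growth factor genes moved in both directions, against 14.6% higher and 13.0% lower in MLCs over all genes tested. The rises in the PDGF and VEGF list were near that share. Of 21 tested FGF and EGF genes 9 rose, 4 fell and 8 were not called. Fgf9 was at 1359, 1187, 1134 and 1072 in MLCs, against 85.3, 71.5, 102 and 76.6 in SMCs (3.81), and Fgf1 rose by 3.55. Hbegf (1.85), coding for an EGF receptor ligand, also rose. Fgf10 (-3.89), which signals from mesenchyme to epithelium, and the receptor gene Fgfr1 (-1.95) fell. In the Notch list 4 of 14 tested genes rose and 6 fell, with Notch1 (-3.24) and the ligand gene Jag1 (-1.15) lower and the ligand gene Dll1 (2.26) and Lfng (1.79), coding for a Notch glycosyltransferase, higher in MLCs. Of 18 PDGF and VEGF genes 3 rose, 7 fell and 8 were not called. Kdr, coding for the main VEGF receptor, averaged 2485 ± 281 in MLCs and 826 ± 48.4 in SMCs (1.58), while Vegfa (-1.76), the gene of its ligand, and Tek (-5.07), coding for the angiopoietin receptor, were lower.

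Secreted mediators went both ways too, against 14.6% higher and 13.0% lower in MLCs over all genes tested. The rises in the chemokine, hyaluronan and protease lists were near or below that share. Of 7 tested prostaglandin genes 4 rose, 2 fell and 1 was not called. Ptgds (4.24), coding for prostaglandin D synthase, Ptgs1 (3.05) and Ptgs2 (2.71), coding for the cyclooxygenases, and Ptgis (1.54), coding for prostacyclin synthase, were higher in MLCs. Ptges (-2.56), coding for prostaglandin E synthase, and Hpgd (-2.84), coding for the enzyme that breaks prostaglandins down, were lower. Of 13 tested complement genes 3 rose, 5 fell and 5 were not called. Those that rose were C2 (2.59), C3 (2.54) and Cfb (2.06), whose products take part in the C3 convertases. C3 averaged 93617 ± 2652 in MLCs and 16338 ± 3480.5 in SMCs. C7 (-5.12), of the membrane attack complex, and Cd55 (-3.21), coding for a convertase inhibitor, fell. Of 15 tested retinoid genes 4 rose, 6 fell and 5 were not called: the retinaldehyde dehydrogenase genes split into Aldh1a2 (2.03), Aldh1a1 (0.11) and Aldh1a3 (-5.93). Of 20 tested chemokine and cytokine genes 3 rose, led by Il18, and 8 fell, led by Cxcl12 (-3.95), with Ccl11 (-3.24), Il6 (-1.91), Lif (-2.09) and Il33 (-1.33). Of 13 tested hyaluronan genes 1 rose and 6 fell, including the synthase gene Has2 (-3.43) and Vcan (-2.03), coding for versican, and of 20 tested protease genes 2 rose and 7 fell, including Mmp2 (-5.50), coding for a gelatinase, and Serpine2 (-3.81) and Serpinf1 (-3.05), coding for secreted serpins.

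Cell cycle genes rose together in MLCs. Of 31 cell cycle genes, all tested, 30 were higher in MLCs, none lower and 1, Pcna (0.85), was not called, with log2 fold changes between 0.85 and 1.77 and a median of 1.41. Uhrf1 (1.69), Kif23 (1.66), Top2a (1.58), Rrm2 (1.77), Kif11 (1.46) and Cdk1 (1.30) had the smallest adjusted p. Mki67, a marker of cycling cells, was at 10478, 9887, 11000.1 and 9323 in MLCs, against 3650.4, 2792, 4095 and 2755 in SMCs (1.63). Of 17 tested imprinted growth genes 10 were lower in MLCs, 1 higher and 6 not called (median -1.18). H19, a noncoding RNA, was at 715, 1085, 732 and 695 in MLCs, against 38874, 35887, 37393 and 41109.9 in SMCs (-5.59), and its neighbour Igf2 (-5.16), coding for an insulin-like growth factor, and Zim1 (-6.72), Peg3 (-3.02) and Dlk1 (-2.42) fell. Meg3 (-0.67) and Grb10 (-0.05) were not called, and Nnat was the gene that rose (1.52). Of 23 tested adipocyte genes 7 were called, a share near the 27.6% of all genes tested: 6 fell, including Lpl (-4.49) and Cebpa (-2.28), and Fabp5 rose by 1.80. Of 20 immediate early and stress genes 18 were not called, among them Fos (-0.11), Jun (-0.16) and Egr1 (-0.17), and Ier3 (1.69) and Egr2 (1.11) rose. Of 18 interstitial progenitor genes 4 rose, led by Dpp4 (4.73), coding for a surface peptidase, and 8 fell, led by Pi16 (-6.89). Whether the Dpp4 protein or that of Cd9, a tetraspanin gene at 2001 ± 124 in MLCs and 1287 ± 86.8 in SMCs, served in the gates is not given in the sources used here.

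**Figure D5:**
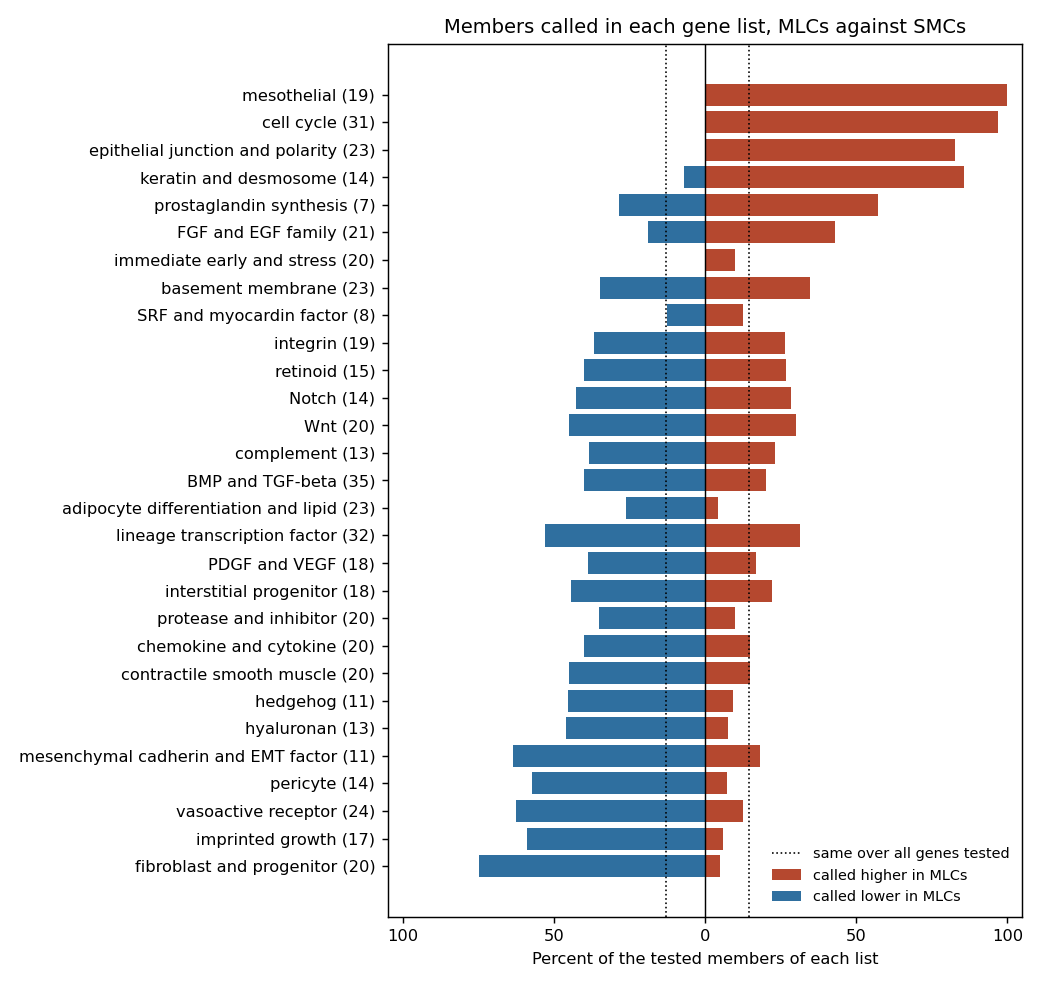
Percent of the tested members of each gene list called higher in MLCs (right, red) and lower in MLCs (left, blue), with the number tested in brackets. Dotted lines mark the same percents over all genes tested, 14.6 to the right and 13.0 to the left. All 19 mesothelial genes and 30 of 31 cell cycle genes lie to the right, and 15 of 20 fibroblast and progenitor genes lie to the left.

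Some markers of other cell types also differed between the gates: macrophage and epididymal calls were all higher in MLCs, mature adipocyte calls were all lower, and endothelial, Schwann cell and skeletal muscle calls went both ways. Of 10 endothelial genes 8 were tested, 5 higher in MLCs, 2 lower and 1 not called. Pecam1 averaged 102 ± 47.4 in MLCs and 30.6 ± 22.8 in SMCs, and Erg and Vwf were under the filter, but Cdh5, coding for VE-cadherin, averaged 129 ± 50.5 in MLCs and 1698 ± 404 in SMCs (-3.77). Summed, the endothelial list ran from 2391 to 3366 in MLC libraries and from 3521 to 4358 in SMC libraries. Of 10 macrophage genes 6 were under the filter, including Ptprc, Adgre1 and C1qa, Mrc1 rose (1.22, but 0.94 and not called without SMCs replicate 4), Cd68 (-0.61) and Lyz2 (-0.75, called at -1.02 without MLCs replicate 4) were not called, and Csf1r, the gene of a growth factor receptor, was at 2108, 2271, 2014 and 2449 in MLCs, against 307, 231, 316 and 179.8 in SMCs (3.12). The macrophage sums were 2475 to 3017 in MLCs and 853 to 1081 in SMCs. Csf1r alone made up most of each MLC sum but not of the SMC sums, so the sums do not speak for the list. Sox10, a defining gene of Schwann cells, was under the filter, while Mbp, coding for myelin basic protein, rose by 3.25. Of the 4 tested genes of that list 2 were higher and 2 lower in MLCs (median log2 fold change 0.13). The list summed to 3526 to 3726 in MLCs and 552 to 754 in SMCs. Skeletal muscle genes summed to 164 to 269.8 in MLCs and 172 to 299 in SMCs. Both tested genes of the epididymal epithelium list, of 8 listed, were higher in MLCs: Spint1 (3.20), coding for an epithelial protease inhibitor, and Pax8 (2.15), coding for a transcription factor. That list summed to 82.1 to 134 in MLC libraries and 30.7 to 47.0 in SMC libraries, in the same direction as the keratin and junction genes. No tested lymphocyte or erythroid gene was called, and each of these lists summed to at most 209 in any of the 8 libraries. The mature adipocyte list summed to 270.3 to 327 in MLC libraries and to 469 to 1379 in SMC libraries, with 2 of its 4 tested genes lower in MLCs (Adipoq -1.93, Cfd -2.41) and SMCs replicate 3 the highest library in 3 of 4. The part of such cells in the results above was not tested.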

How the data were processed

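Pdgfrb+ cells of 4 populations were profiled by bulk RNA-seq in 16 libraries, 4 each, and the 8 of MLCs and SMCs were compared. The deposited table holds the authors' normalized signal per gene: reads divided by a size factor. Per the submitters' processing notes, the tools were DESeq2 1.6.3, featureCounts 1.4.6, HISAT2 2.0.1 and Trim Galore 0.4.1, with the build GRCm38 (mm10), in roles not given in the sources used here. Columns headed SMLCs were matched to the samples titled SMCs, and 0 columns were left unmapped. Every value was a whole multiple of what 1 read was worth in its library, within 0.01 (100% of values), so reads were recovered. These gave depths of 9.20 to 24.8 M in the 8 libraries. Of 27179 rows, 1275 had no symbol (0.119 to 0.135% of the values). They were kept under their Entrez identifiers and tested where they passed the filter. Only the rankings of largest rises, largest falls and most abundant uncalled genes left them out. Replicates of a gate differed by more than sampling noise (chi-square per degree of freedom 7.34 to 12.5 in MLC pairs and 8.08 to 13.9 in SMC pairs).

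Values were tested as log2(value + 1) with limma 3.58.1 in R 4.3.3 with an intensity trend, on genes that reached 10 in 4 or more of 8 libraries. A gene was called at a Benjamini-Hochberg adjusted p under 0.05 over all genes and a 2-fold change. Adding 1 understates changes of low genes. The fit was run on simulated counts with a fixed dispersion and a far smaller share of changed genes than was called here. That run checks the code and does not give error rates for these data. edgeR 4.0.16 and DESeq2 1.42.0 were run on recovered reads as alternatives, with other pseudocounts, filters, scalings, fits and left-out libraries. Contrasts with APCs and FIPs came from a limma model of all 16 libraries on 15024 genes and were added after the data were seen. An exact permutation test of 4 against 4 cannot go below 0.0286 and was not used. The comparison and gene lists were chosen with earlier results of these data known. Named were members of the mesothelial, contractile, pericyte, fibroblast and transcription factor lists, up to 6 members of each other list by adjusted p with its abundant uncalled members, the 12 largest rises and falls, the 6 most abundant genes not called and 7 panel genes. Dsc2, Cdh3, Cdh1, Cdh2, Lama5, Lama3, Itga6, Itgb4, Mki67, Nnat and Dhh lay outside this rule and were chosen after their values were seen. Some genes that the rule names or the lists hold are not reported here. Coordinates and promoters are from RefSeq on GRCm38.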

Additional observations from a re-analysis of the deposited data

Results flagged for a closer look

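In 522 groups of 4 libraries, each a named gene in 1 gate, 32 had a highest or lowest library whose gap to its neighbour, as a share of the range of the group, passed Dixon's critical value. Chance flags about 1 in 20 such groups. Values are normalized counts, and each sentence gives the library that stood apart. MLCs replicate 1 was the highest of its gate in C7 at 67.9, Col1a1 at 428855, Ebf2 at 43.6, Foxc1 at 67.0, Mylk at 2616 and Ogn at 6521. MLCs replicate 1 was the lowest of its gate in Csrp1 at 4192, Hmcn2 at 20.1 and Sox9 at 48.6. MLCs replicate 2 was the highest of its gate in Boc at 6643, C3 at 97572, Dlk1 at 5851, Egflam at 69.3, H19 at 1085, Hpgd at 766, Npr3 at 42.3 and Pax8 at 71.0. MLCs replicate 2 was the lowest of its gate in Pkhd1l1 at 27705. MLCs replicate 3 was the lowest of its gate in Anpep at 2647. MLCs replicate 4 was the highest of its gate in Cd9 at 2186, Il6 at 104 and Krt8 at 6207. MLCs replicate 4 was the lowest of its gate in Zeb2 at 839.8. SMCs replicate 2 was the highest of its gate in Lhx9 at 194 and Tbx2 at 425. SMCs replicate 3 was the highest of its gate in Sim2 at 4.27 and Wt1 at 3723. SMCs replicate 3 was the lowest of its gate in Aldh1a1 at 1806, Egflam at 6834, Ntrk3 at 3734 and Peg3 at 30616. SMCs replicate 4 was the highest of its gate in Gdf10 at 6581. No explanation of these values was tested.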

How the results depend on the processing

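The total of 4032 called genes stayed within 1.5 times under all 19 alternatives. It was 4060 in edgeR on recovered reads (3946 shared), 4072 in DESeq2 (3941 shared), 4048 with a replicate block and 3963 to 4056 when 1 library was left out. Left-out libraries gave 2087 to 2172 genes higher in MLCs, 1876 to 1916 lower, 8388 to 8449 abundant genes not called and 1697 to 1717 called, 7 to 19 near absent from SMCs and 51 to 63 near absent from MLCs. The count of 8 near absent from SMCs was 16 without SMCs replicate 2 and 19 without SMCs replicate 3. Leaving out any SMC library means that fewer libraries had to be low, and the cause of these values was not tested. Equal library totals moved the median log2 fold change by 0.11 and the share of calls higher in MLCs to 57.96%, against 52.95%. Of 261 named genes tested, none that was called changed direction. The sign of uncalled differences changed for Myocd (-0.0023 with a pseudocount of 8, -0.23 in edgeR, -0.22 in DESeq2 and -0.30 to 0.36 with 1 library left out, below 0 without MLCs replicate 3 or SMCs replicate 3 or 4), Myh11 (-0.0021 in edgeR, -0.011 in DESeq2 and -0.17 to 0.25 with 1 library left out, below 0 without SMCs replicate 4), Gli3 (-0.018 without SMCs replicate 2), Fos (0.010 with equal totals and 0.13 with quantiles), Grb10 (0.069 with equal totals), Jun (0.18) and Col3a1 (0.28, both with quantiles). Quantile scaling gives every library the same set of values, so a gene differs there only by its rank. The cause of the other shifts was not tested. Same-numbered libraries of the gates correlated at 0.085, -0.02, 0.06 and 0.173 in their deviations, and the other pairs at -0.116 to 0.058. Such weak values cannot tell whether same-numbered samples share an animal or a sort, and the labels do not say. The replicate block shared 4025 of the 4032 calls and is given only here. SMCs replicate 3, the shallowest library, gives the least precision for low genes, at 9.20 M reads.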
